A study of Homo sapiens with 6 samples.

Results

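The genes described here are 9 components of the extracellular proteolysis machinery: the plasminogen activators PLAU and PLAT, the urokinase receptor PLAUR, the matrix metalloproteinases MMP1, MMP2, MMP3 and MMP14, and the inhibitors TIMP1 and TIMP3. They were chosen by name as plasminogen activators, metalloproteinases and their inhibitors, and each symbol matched 1 of the 60483 gene ids in the count tables. Poly(A) RNA of the human glioblastoma line T98G was sequenced in 6 libraries, 2 per group. The oeSRPK1 cells were transiently transfected with full-length SRPK1 cDNA in pcDNA3.1. The shSRPK1 cells were transiently transfected with a short hairpin against SRPK1 in pLKO.1. The NT cells were left untreated. With no mock or empty-vector library among those analysed here, the effect of a construct and that of transfection itself cannot be told apart when a group is set against NT. The 2 transfected groups also carried different vectors, and the labels give no time after transfection.

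Plasminogen activators are serine proteases that cut plasminogen into plasmin, which degrades fibrin and matrix proteins and can activate several pro-metalloproteinases. PLAU (urokinase) acts mainly at the cell surface, bound to its receptor PLAUR, and several serpins block it. Metalloproteinases are secreted or membrane-bound zinc enzymes that cut collagens and other matrix, and TIMPs bind their active sites. In glioblastoma this system is known for its part in invasion of brain tissue.

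Gene reads per library ran from 3891549 (oeSRPK1 2) to 22691215 (oeSRPK1 1), and all 9 genes passed the filter on low counts, which kept 14732 genes. SRPK1 itself had 190 and 168 CPM (reads scaled to a common library total, corrected for library composition) in oeSRPK1, 113 and 140.1 in shSRPK1, and 152.5 and 140.4 in NT. Only its difference between oeSRPK1 and shSRPK1 passed the test (log2 fold change 0.50 ± 0.14 SE, edgeR adjusted p = 0.0377), not that of shSRPK1 against NT (-0.21 ± 0.14, edgeR adjusted p = 0.360) or of oeSRPK1 against NT (0.29 ± 0.14, edgeR adjusted p = 0.175). Of 10 glioblastoma and astrocyte markers, EGFR and the genes VIM and CD44, which also mark mesenchymal cells, had at least 3131 reads in every library. NES had 5 to 25 reads, OLIG2 8 to 73 and ALDH1L1 2 to 8, while GFAP, S100B, SOX2 and AQP4 had 0 or 1 read. The replicates of shSRPK1 lay farther apart than those of the other groups, with a chi-square per gene of 40.7, against 7.41 in oeSRPK1 and 4.11 in NT. Of 12 skeletal muscle markers, 11 were found in the tables, and their summed level was 201 and 2401 CPM in oeSRPK1, 1.51 and 11.7 CPM in shSRPK1, and 0.874 and 1.70 CPM in NT. The slow myosin gene MYH7 led them, with 2399 and 4905 reads in oeSRPK1, 0 and 61 in shSRPK1 and 0 in both NT libraries. Markers of myeloid and endothelial cells summed to at most 1.51 CPM in any library. In bulk RNA of this kind, fewer cells of a type and less RNA per cell cannot be told apart.

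RefSeq promoter windows (GRCh38.p14) matched 5 of the 9 genes: PLAU, PLAUR, MMP14, TIMP1 and TIMP3. The sequences below belong to genes whose levels separated the oeSRPK1 libraries from NT, and show what lies before their starts, written 5′ to 3′ on the gene's strand, with motif matches in capitals. The motifs searched in the 250 bases before each start, on both strands, were the GC box (GGGCGG), the AP-1 motif (TGANTCA), the TATA box (TATAAA) and the NF-kB motif. PLAU is shown at its downstream start (chr10:73910882-73911103, plus strand), PLAUR around its AP-1 match only (chr19:43670339-43670365, minus strand), TIMP3 at chr22:32801455-32801700 (plus strand) and MMP14 at chr14:22836335-22836556 (plus strand). Stretches that lie in annotated exons were left out, except for PLAUR, where an annotated exon covers the window.
PLAU: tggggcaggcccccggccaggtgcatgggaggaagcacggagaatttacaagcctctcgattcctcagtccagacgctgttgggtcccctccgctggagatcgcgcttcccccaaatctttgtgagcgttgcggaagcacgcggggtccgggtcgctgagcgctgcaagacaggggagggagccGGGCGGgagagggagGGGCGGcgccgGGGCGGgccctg
PLAUR: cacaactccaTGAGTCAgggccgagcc
TIMP3: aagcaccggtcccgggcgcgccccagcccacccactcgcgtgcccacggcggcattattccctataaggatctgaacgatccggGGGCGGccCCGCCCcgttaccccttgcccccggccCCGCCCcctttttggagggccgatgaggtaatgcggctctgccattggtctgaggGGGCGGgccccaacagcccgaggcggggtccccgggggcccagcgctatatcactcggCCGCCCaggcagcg
MMP14: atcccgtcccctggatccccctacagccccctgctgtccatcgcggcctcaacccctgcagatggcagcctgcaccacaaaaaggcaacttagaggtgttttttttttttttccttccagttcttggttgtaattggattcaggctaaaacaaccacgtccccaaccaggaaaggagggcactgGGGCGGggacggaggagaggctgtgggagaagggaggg

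The downstream PLAU window held 3 GC boxes, the TIMP3 window 5, the TIMP1 window 2 and the MMP14 window 1, and the upstream PLAU window held none of the 4 motifs. The PLAUR window held 1 AP-1 match, 186 to 180 bases before the start, and no GC box. Of all 35116 RefSeq windows of the same length, 42.6% held a GC box, 6.57% the AP-1 motif, 10.7% the TATA box and 6.88% the NF-kB motif. A match describes letters in these windows and shows no binding.

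The 9 genes spanned a wide range of levels, and their order changed with the group. Per kilobase of exon, PLAU stood first in oeSRPK1, while MMP2, the gelatinase that cuts type IV collagen, stood first in shSRPK1 and NT. In oeSRPK1 the order was PLAU (453 ± 19.2 CPM per kilobase, SD, n = 2), MMP1 (139 ± 2.48), MMP2 (123 ± 2.19), TIMP1 (89.2 ± 2.12), MMP14 (50.4 ± 0.292), PLAUR (16.5 ± 0.277), TIMP3 (14.9 ± 1.05), MMP3 (9.09 ± 0.710) and PLAT (7.53 ± 0.536). No neighbours in that order overlapped between libraries. In shSRPK1 the order was MMP2 (241 ± 12.5 CPM per kilobase), TIMP1 (130.4 ± 25.9), MMP1 (124.5 ± 79.5), PLAU (66.3 ± 27.0), MMP14 (63.8 ± 2.16), PLAUR (8.55 ± 4.14), TIMP3 (7.46 ± 0.760), PLAT (7.38 ± 1.78) and MMP3 (6.65 ± 0.376). Here the neighbours from TIMP1 down to MMP14, and from PLAUR down to MMP3, overlapped and have no order beyond their spread. In NT the order was MMP2 (184 ± 0.486 CPM per kilobase), PLAU (136.5 ± 1.51), MMP1 (72.2 ± 10.0), TIMP1 (71.6 ± 11), MMP14 (68.0 ± 3.63), TIMP3 (7.19 ± 0.142), PLAT (5.46 ± 0.187), MMP3 (4.96 ± 0.0908) and PLAUR (4.65 ± 0.260), with MMP1, TIMP1 and MMP14 overlapping. PLAUR, the urokinase receptor, was thus last in NT and sixth in oeSRPK1.

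**Figure D1:**
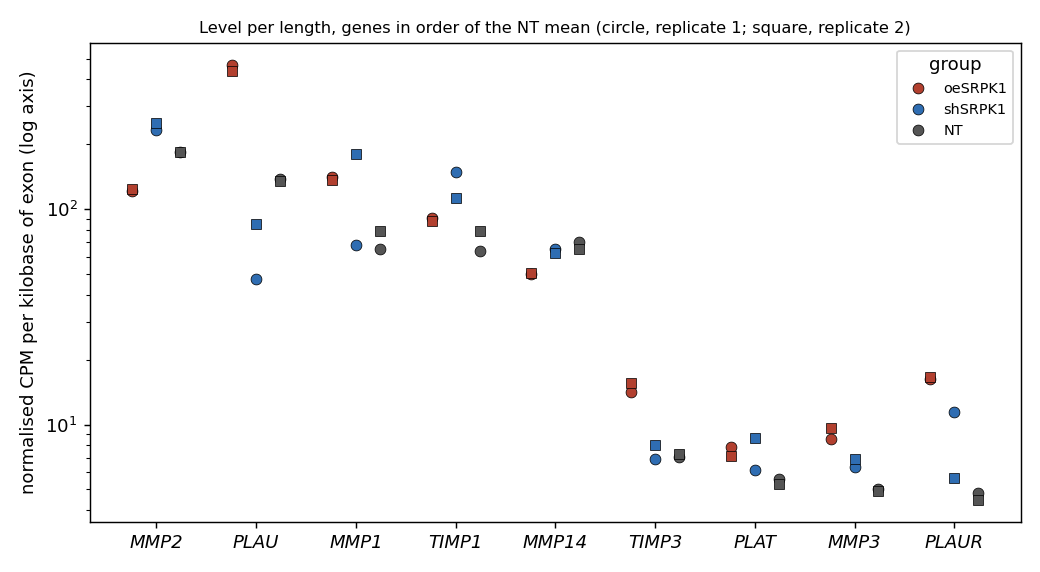
Level of each gene per library in normalised CPM per kilobase of exon (log axis), with genes from left to right in order of the NT mean and the groups oeSRPK1, shSRPK1 and NT side by side. PLAU stands highest in oeSRPK1, at 439 and 466 CPM per kilobase, and MMP2 highest in NT, at 183.5 and 184.2.

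PLAU (ENSG00000122861.14, GRCh38 chromosome 10, 73909177 to 73917497, plus strand), the urokinase gene, moved in opposite directions with the 2 constructs. It had 1376 and 1296 CPM in oeSRPK1, 139 and 252 CPM in shSRPK1, and 406 and 399 CPM in NT, from 30580, 5012, 1843, 2633, 4179 and 5656 reads. The 3 groups did not overlap: both oeSRPK1 libraries lay above NT and both shSRPK1 libraries below it. Against NT, PLAU rose 3.32-fold in oeSRPK1 (95% interval 2.20 to 5.01), a log2 fold change of 1.73 ± 0.26 (SE, edgeR adjusted p = 0.00526). In shSRPK1 it fell to 0.485 times the NT level (95% interval 0.323 to 0.729, -1.04 ± 0.25, edgeR adjusted p = 0.0448). Set against shSRPK1, the oeSRPK1 level was 6.84-fold higher (95% interval 4.45 to 10.5, 2.77 ± 0.27, edgeR adjusted p = 0.00176), and that call held with each library left out in turn (edgeR adjusted p at most 0.0379). The rise over NT failed the edgeR threshold without oeSRPK1 1 (adjusted p = 0.0737), NT 1 (0.0687) or NT 2 (0.0635), while the log2 fold change stayed between 1.65 and 1.77. The call in shSRPK1 was lost in edgeR without oeSRPK1 1 (adjusted p = 0.111), oeSRPK1 2 (0.108), NT 1 (0.297) or NT 2 (0.201) and in a fit of the shSRPK1 and NT libraries alone (0.108). Its size was -0.68 without shSRPK1 1 and -1.53 without shSRPK1 2. C10orf55, on the opposite strand, shares 31.1% of the exon bases of PLAU, and reads there cannot be assigned without strand. It was itself counted at 8 to 40 reads.

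PLAUR (ENSG00000011422.10, chromosome 19, 43646095 to 43670547, minus strand), the receptor that holds urokinase at the cell surface, rose with the SRPK1 vector. It had 72.7 and 74.5 CPM in oeSRPK1, 51.1 and 25.1 CPM in shSRPK1, and 21.6 and 19.9 CPM in NT. The oeSRPK1 libraries agreed within 1.02 times, and the shSRPK1 libraries differed 2.04-fold, with shSRPK1 2 close to NT. PLAUR rose 3.55-fold in oeSRPK1 over NT (95% interval 2.13 to 5.93, 1.83 ± 0.31, edgeR adjusted p = 0.0105). The difference between shSRPK1 and NT did not pass (0.89 ± 0.31, edgeR adjusted p = 0.117), nor did that between oeSRPK1 and shSRPK1 (0.94 ± 0.30, edgeR adjusted p = 0.0647). Without shSRPK1 2 the rise against NT in shSRPK1 was 1.31, and without shSRPK1 1 it was 0.28. The difference between oeSRPK1 and shSRPK1 was 1.52 without shSRPK1 1 and 0.48 without shSRPK1 2. With 1 shSRPK1 library left, the spread came from the other groups, so these fits give sizes only. Both differences involving shSRPK1 passed in DESeq2 (adjusted p = 0.0399 against NT and 0.0149 between oeSRPK1 and shSRPK1). They also passed in edgeR with no filter on low counts (adjusted p = 5.04e-06 and 2.85e-06). That unfiltered fit gave PLAU an edgeR adjusted p of 1.23e-60 in oeSRPK1 against shSRPK1, beside 0.00176 with the filter. DESeq2 gave PLAU an adjusted p of 1.77e-24 there. The small values of both fits are therefore not read as added support. The rise over NT failed the edgeR threshold without oeSRPK1 1 (adjusted p = 0.0867), NT 1 (0.0965) or NT 2 (0.0963).

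PLAT (ENSG00000104368.16, chromosome 8, 42175233 to 42207724, minus strand), tissue plasminogen activator, which acts chiefly on fibrin and in brain tissue, showed smaller differences than PLAU. It had 52.3 and 47.3 CPM in oeSRPK1, 40.6 and 57.2 CPM in shSRPK1, and 37.0 and 35.2 CPM in NT. All 4 transfected libraries lay above both NT libraries, and the oeSRPK1 values lay within the range of shSRPK1. The differences from NT were 0.47 ± 0.17 in oeSRPK1 (edgeR adjusted p = 0.0903) and 0.43 ± 0.17 in shSRPK1 (edgeR adjusted p = 0.142), and neither passed. oeSRPK1 over shSRPK1 gave a ratio of 1.03 (95% interval 0.781 to 1.35, edgeR adjusted p = 0.896). Without shSRPK1 1 the log2 fold change of PLAT against NT was 0.67 in shSRPK1 and 0.45 in oeSRPK1. In oeSRPK1 it was 0.44 without shSRPK1 2. PLAT in oeSRPK1 passed when only the oeSRPK1 and NT libraries were fitted (0.46, edgeR adjusted p = 0.00182), a fit that called 6331 genes, beside 3036 in the main fit.

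**Figure D2:**
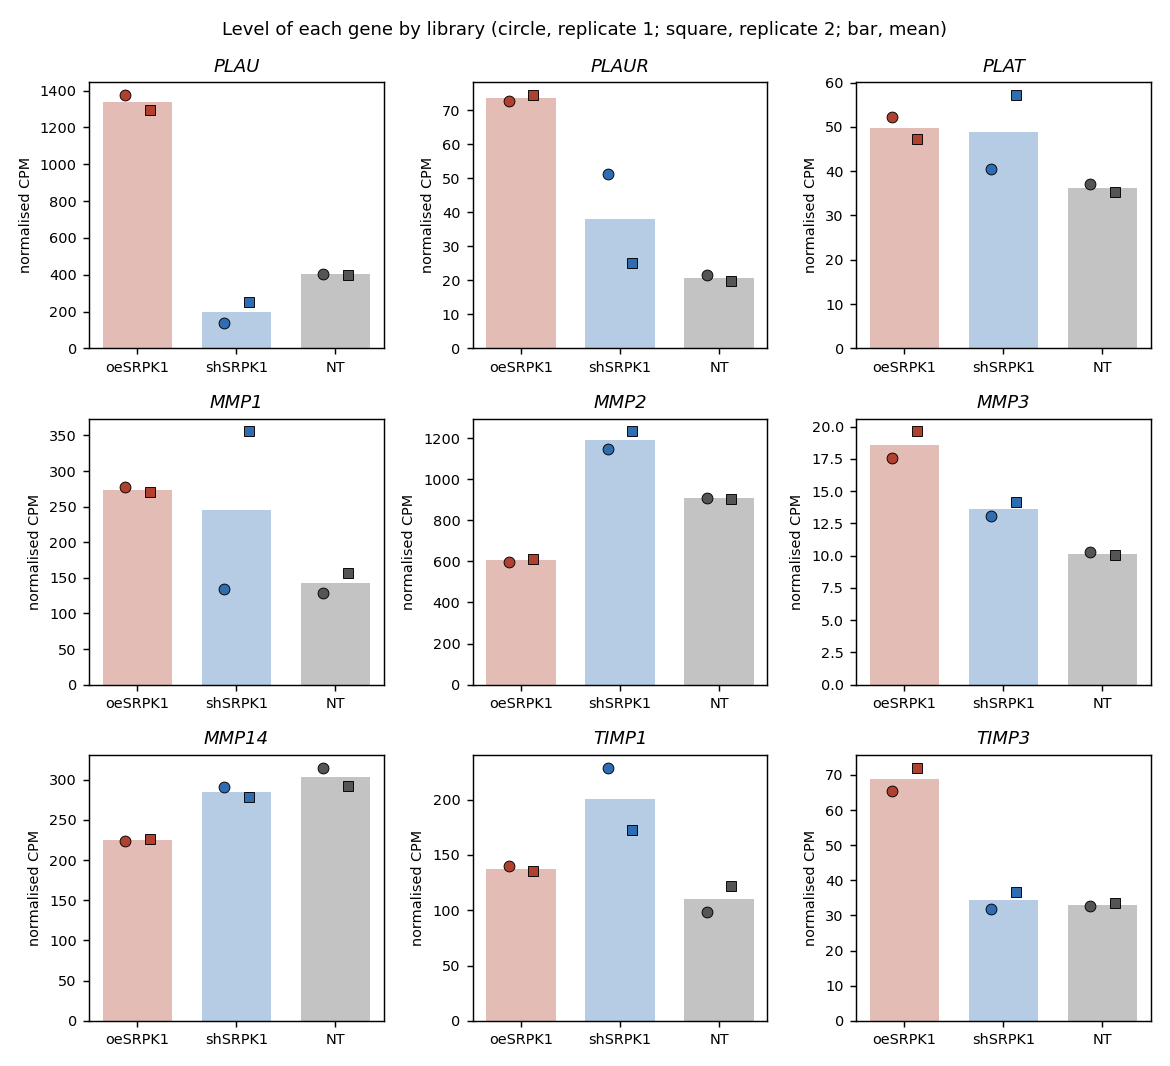
Normalised CPM (linear axes from 0, a scale of its own per gene) of the 9 genes in each library, with circles for replicate 1, squares for replicate 2 and bars for the group mean, in the order oeSRPK1, shSRPK1 and NT. PLAU lies at 1376 and 1296 CPM in oeSRPK1, above 139 and 252 in shSRPK1 and 406 and 399 in NT, while the 2 shSRPK1 libraries stand far apart for MMP1 and PLAUR.

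MMP1 and MMP3 were both higher in the oeSRPK1 libraries than in NT, and of these only MMP3 passed the test. MMP3 (ENSG00000149968.10, chromosome 11, 102835801 to 102843803, minus strand) encodes stromelysin, which cuts many matrix proteins and activates other pro-metalloproteinases. It had 17.6 and 19.7 CPM in oeSRPK1, 13.1 and 14.2 CPM in shSRPK1, and 10.3 and 10.0 CPM in NT, from as few as 76 reads in oeSRPK1 2. The 3 groups did not overlap, with shSRPK1 between the others. MMP3 was 1.81-fold higher in oeSRPK1 than in NT (95% interval 1.41 to 2.34, 0.86 ± 0.16, edgeR adjusted p = 0.00976). Neither shSRPK1 against NT (0.42 ± 0.16, edgeR adjusted p = 0.126) nor oeSRPK1 against shSRPK1 (0.44 ± 0.16, edgeR adjusted p = 0.0785) passed. The MMP3 call was lost in edgeR without oeSRPK1 1 (adjusted p = 0.100), oeSRPK1 2 (0.0634), NT 1 (0.103) or NT 2 (0.106), at log2 fold changes of 0.79 to 0.92.

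MMP1 (ENSG00000196611.4, chromosome 11, 102789920 to 102798160, minus strand), the interstitial collagenase, lies near MMP3 in the same metalloproteinase gene cluster. It had 277 and 270.1 CPM in oeSRPK1, 135 and 356 CPM in shSRPK1, and 128 and 156 CPM in NT. The shSRPK1 libraries differed 2.64-fold, the widest replicate gap among the 9 genes: shSRPK1 1 lay within the NT range and shSRPK1 2 above every other library. No MMP1 difference passed with all 6 libraries, at 1.92-fold for oeSRPK1 against NT (95% interval 0.891 to 4.15, 0.94 ± 0.44, edgeR adjusted p = 0.195), 1.72-fold for shSRPK1 against NT (95% interval 0.800 to 3.71, 0.78 ± 0.44, edgeR adjusted p = 0.304) and 1.12-fold for oeSRPK1 against shSRPK1 (95% interval 0.521 to 2.39, edgeR adjusted p = 0.823). In oeSRPK1 against NT its log2 fold change was 0.91 without shSRPK1 1 and 0.90 without shSRPK1 2. It passed there in edgeR when only the oeSRPK1 and NT libraries were fitted (0.92, adjusted p = 1.52e-06). That fit called 6331 genes, beside 3036 with all 6 libraries, and each of the 9 genes. The direction between oeSRPK1 and shSRPK1 turned with the shSRPK1 library kept, at -0.41 without shSRPK1 1 and 0.98 without shSRPK1 2. In shSRPK1 against NT the log2 fold change of MMP1 was 1.32 without shSRPK1 1 and -0.08 without shSRPK1 2.

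MMP2 and MMP14 were lower in oeSRPK1 than in NT. MMP2 (ENSG00000087245.11, chromosome 16, 55389700 to 55506691, plus strand) had 597 and 613 CPM in oeSRPK1, 1147 and 1234 CPM in shSRPK1, and 909 and 905 CPM in NT. The groups did not overlap, and replicates differed at most 1.08-fold. It fell in oeSRPK1 to 0.667 times the NT level (95% interval 0.545 to 0.817, -0.58 ± 0.13, edgeR adjusted p = 0.0173) and to 0.508 times the shSRPK1 level (95% interval 0.415 to 0.623, -0.98 ± 0.13, edgeR adjusted p = 0.00333). The level in shSRPK1 was 1.31 times that of NT and did not pass (95% interval 1.07 to 1.61, 0.39 ± 0.13, edgeR adjusted p = 0.0900). That difference was 0.45 without shSRPK1 1 and 0.34 without shSRPK1 2, and it passed in DESeq2 (adjusted p = 0.0327). For MMP2 in oeSRPK1 against shSRPK1, DESeq2 also gave a far smaller adjusted p (1.81e-11) than edgeR, so its pass is not read as added support. The fall below NT failed the edgeR threshold without oeSRPK1 1 (adjusted p = 0.165), oeSRPK1 2 (0.110), NT 1 (0.150) or NT 2 (0.133), and that against shSRPK1 without oeSRPK1 1 (0.0795).

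MMP14 (ENSG00000157227.11, chromosome 14, 22836557 to 22849027, plus strand) encodes the membrane-anchored metalloproteinase that, together with TIMP2, activates pro-MMP2 at the cell surface. It had 224 and 226 CPM in oeSRPK1, 291 and 278 CPM in shSRPK1, and 315 and 292 CPM in NT. Both oeSRPK1 libraries lay below the other 4, and shSRPK1 lay just below NT. MMP14 fell in oeSRPK1 to 0.741 times the NT level (95% interval 0.617 to 0.890, -0.43 ± 0.12, edgeR adjusted p = 0.0336). It did not pass against shSRPK1 (-0.34 ± 0.12, edgeR adjusted p = 0.0670) or in shSRPK1 against NT (-0.09 ± 0.11, edgeR adjusted p = 0.632). The call was lost in edgeR without oeSRPK1 1 (adjusted p = 0.209), oeSRPK1 2 (0.163), NT 1 (0.253) or NT 2 (0.150). The difference between oeSRPK1 and shSRPK1 was -0.34 without shSRPK1 1 and -0.42 without shSRPK1 2.

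The inhibitors TIMP1 and TIMP3 each rose with a different construct. TIMP3 (ENSG00000100234.11, chromosome 22, 32801701 to 32863043, plus strand), which binds to the matrix and inhibits metalloproteinases and ADAM proteases, lies within SYN3 on the opposite strand and shares no exon bases with it. It had 65.3 and 72.1 CPM in oeSRPK1, 31.9 and 36.8 CPM in shSRPK1, and 32.6 and 33.5 CPM in NT. Both oeSRPK1 libraries lay far above the other 4, while shSRPK1 and NT overlapped. TIMP3 rose 2.07-fold in oeSRPK1 against NT (95% interval 1.68 to 2.54, 1.05 ± 0.13, edgeR adjusted p = 0.00229), and was 2.00-fold higher in oeSRPK1 than in shSRPK1 (95% interval 1.63 to 2.45, 1.0 ± 0.13, edgeR adjusted p = 0.00331). In shSRPK1 it was 1.04 times the NT level (95% interval 0.845 to 1.27, edgeR adjusted p = 0.826). The call against NT held in edgeR with each library left out in turn (adjusted p at most 0.0476), and that against shSRPK1 was lost without oeSRPK1 1 (0.0590).

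TIMP1 (ENSG00000102265.10, chromosome X, 47582313 to 47586789, plus strand), a secreted inhibitor of most metalloproteinases, lies within SYN1 on the opposite strand with no shared exon bases. It had 140 and 135 CPM in oeSRPK1, 229 and 173 CPM in shSRPK1, and 98.4 and 122 CPM in NT. The groups did not overlap, with oeSRPK1 between shSRPK1 and NT. In shSRPK1 it rose 1.82-fold against NT (95% interval 1.40 to 2.38, 0.86 ± 0.17, edgeR adjusted p = 0.0231), and the oeSRPK1 level stood below that of shSRPK1 (0.685 times, 95% interval 0.525 to 0.894, -0.55 ± 0.17, edgeR adjusted p = 0.0496). In oeSRPK1 against NT it did not pass (0.32 ± 0.17, edgeR adjusted p = 0.213), and was 0.28 without shSRPK1 1 or shSRPK1 2. It passed there in edgeR when only the oeSRPK1 and NT libraries were fitted (0.29, adjusted p = 0.0267), where 6331 genes were called, beside 3036 in the main fit. The call in shSRPK1 was lost in edgeR without oeSRPK1 1 (adjusted p = 0.0809), oeSRPK1 2 (0.0795), NT 1 (0.280) or NT 2 (0.112) and when only the shSRPK1 and NT libraries were fitted (0.0852). The call between oeSRPK1 and shSRPK1 was lost in edgeR without oeSRPK1 1 (adjusted p = 0.225), oeSRPK1 2 (0.207), NT 1 (0.0858) or NT 2 (0.0847), and in a fit of the oeSRPK1 and shSRPK1 libraries alone (0.0860). Beside TIMP1, the summed fibroblast markers were 2753 and 2795 CPM in oeSRPK1, 5091 and 4288 CPM in shSRPK1, and 2732 and 2861 CPM in NT. COL1A2 made up most of these sums. COL1A1, COL1A2 and PDGFRB were higher in both shSRPK1 libraries than in NT. COL3A1 (10.1 and 54.8 CPM in shSRPK1, 49.4 and 62.2 CPM in NT), PDGFRA and FAP did not separate these groups. DCN and LUM had at most 9 reads in any library, and the part of these markers in the TIMP1 result was not tested.

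**Figure D3:**
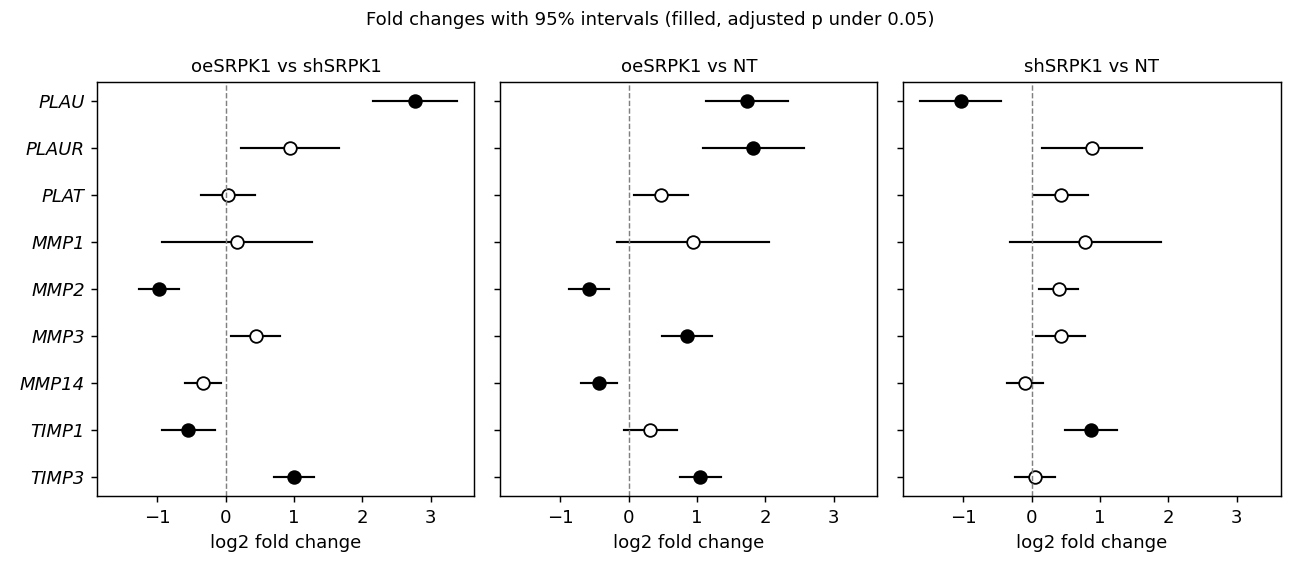
Log2 fold change of each gene with its 95% interval from edgeR in the 3 comparisons, filled where the adjusted p was under 0.05. PLAU is the gene called in all 3 panels, to the right of 0 in both oeSRPK1 panels (2.77 and 1.73) and to the left in shSRPK1 against NT (-1.04), and MMP1 has the widest intervals.

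In oeSRPK1 against NT, 6 of the 9 genes were called: PLAU, PLAUR, MMP3 and TIMP3 higher, and MMP2 and MMP14 lower. Of all 14732 tested genes, 20.6% were called in that comparison, 11.2% higher and 9.45% lower. In shSRPK1 against NT, 2 of the 9 were called, TIMP1 higher and PLAU lower, against 9.18% of all tested genes, 5.43% higher and 3.75% lower. In oeSRPK1 against shSRPK1, 4 of the 9 were called, PLAU and TIMP3 higher and MMP2 and TIMP1 lower, against 22.8% of all tested genes, 11.5% higher and 11.3% lower. The genes were named for their roles with results of these data known, so these counts are descriptions. The groups did not overlap for 9 of 9 genes in oeSRPK1 against NT (70.5% of all tested genes), for 7 in shSRPK1 against NT (57.5%) and for 7 in oeSRPK1 against shSRPK1 (62.3%). The median log2 fold change of the 9 genes was 0.86 in oeSRPK1 against NT, 0.42 in shSRPK1 against NT and 0.16 in oeSRPK1 against shSRPK1, beside 0.00, 0.01 and 0.00 over all tested genes. The comparisons with NT share the NT libraries. The 9 genes differed between the oeSRPK1 libraries by 1.01 to 1.12 times. The summed muscle markers were 201 and 2401 CPM in the same libraries, both above NT. Their part in the results of the 9 genes was not tested.

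The profiles of some genes lay close to each other over the 6 libraries. With each gene's log2 CPM centred on its own mean, MMP3 and TIMP3 had the smallest root mean square difference among the 36 pairs, at 0.232 log2 units, followed by PLAT and MMP3 (0.235) and MMP2 and MMP14 (0.278). PLAU and MMP2 lay farthest apart, at 1.58. Of 12496 genes compared, those tested whose log2 CPM averaged 1 or more, PLAU was nearest to CX3CL1, a membrane-bound chemokine (0.167), and SH3BGR (0.242). PLAUR was nearest to GLIPR1 (0.133) and ICAM1, an adhesion molecule for leukocytes (0.140). TIMP3 was nearest to NEK3 (0.0685) and CCDC188 (0.0804), and TIMP1 to PLOD2, a collagen lysyl hydroxylase (0.0809), and GNB3 (0.0831). MMP1 was nearest to SLFN12 (0.105) and GBP4, a guanylate-binding protein (0.109), and MMP3 to the proteasome activator PSME2 (0.0347) and PLEKHN1 (0.0403). MMP2 was nearest to SCPEP1 (0.0354) and MTSS2 (0.0569), MMP14 to the DNA ligase gene LIG3 (0.0391) and SUCLG1 (0.0394), and PLAT to ITPKC (0.0425) and TBCEL (0.0476). All of these values rest on 6 libraries in 3 groups, so many genes share such profiles.

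Of 24 genes of the plasminogen activation list, 14 were tested, and 7 were called in oeSRPK1 against NT, all higher, 2 higher and 1 lower in shSRPK1 against NT, and 4 in oeSRPK1 against shSRPK1, all higher. The list medians were 0.62, 0.38 and 0.23. These calls include PLAU and PLAUR, described above: both in oeSRPK1 against NT, and PLAU as the gene called lower in shSRPK1 and as 1 of the 4 against shSRPK1. Over all tested genes, 11.2% were called higher in oeSRPK1 against NT, 5.43% higher and 3.75% lower in shSRPK1 against NT, and 11.5% higher in oeSRPK1 against shSRPK1. PLG, the gene of plasminogen itself, had 0 reads in every library. SERPINB2 (PAI-2), a urokinase inhibitor, had 216 and 28 reads in oeSRPK1, 34 and 23 in shSRPK1, and 3 and 9 in NT, and rose by 4.14 ± 0.38 in oeSRPK1 (edgeR adjusted p = 0.000755) and 2.28 ± 0.42 in shSRPK1 (edgeR adjusted p = 0.0201) against NT. It was thus higher in oeSRPK1 together with PLAU and PLAUR. SERPINB8, a serpin known to inhibit furin, rose by 2.68 ± 0.21 in oeSRPK1 against NT (edgeR adjusted p = 0.000454), and SERPINE2 (protease nexin), which inhibits thrombin and urokinase, by 1.15 ± 0.15 (edgeR adjusted p = 0.00269). The plasminogen-binding surface proteins ANXA2 (0.57 ± 0.15, edgeR adjusted p = 0.0291) and ENO1 (0.67 ± 0.18, edgeR adjusted p = 0.0389) also rose there, and both have pseudogene copies that can share reads. S100A10, the partner of ANXA2 in plasminogen binding, rose in shSRPK1 (0.98 ± 0.24, edgeR adjusted p = 0.0490). Without any 1 of oeSRPK1 1, oeSRPK1 2, NT 1 and NT 2, fewer genes of this list were called higher in oeSRPK1 against NT. Fewer of all tested genes were called higher there as well. SERPINB2 and SERPINB8 stayed called each time. The calls of SERPINB2 and S100A10 in shSRPK1 against NT were lost without any 1 of those 4 libraries.

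**Figure D4:**
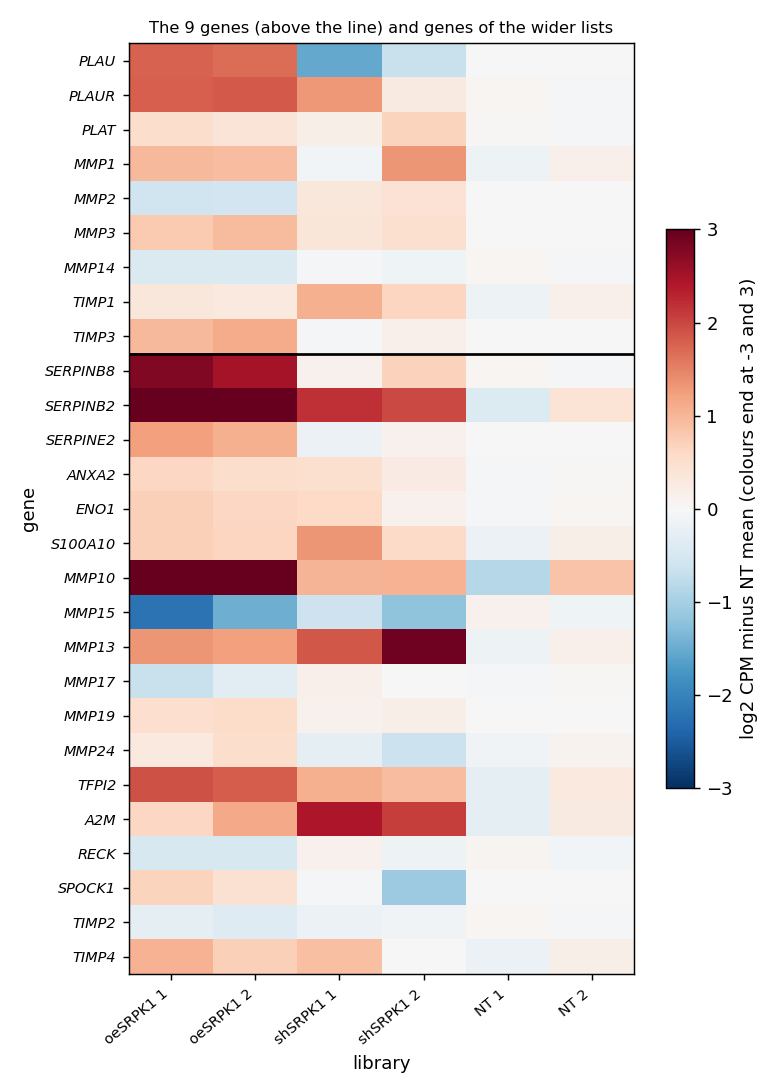
Log2 CPM of each library minus the NT mean (colour, red above and blue below, the scale ends 3 units either side of 0) for the 9 genes, above the line, and the genes named from the 3 wider lists, below it. SERPINB2 and MMP10 are at 2.99 or more in both oeSRPK1 libraries, MMP13 is redder in shSRPK1 (1.86 and 2.92) than in oeSRPK1 (1.33 and 1.23), and MMP15 is blue in all 4 transfected libraries.

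Of 23 metalloproteinase genes, 12 were tested, and 4 were called higher and 3 lower in oeSRPK1 against NT, 1 in shSRPK1 against NT, higher, and 1 higher and 3 lower in oeSRPK1 against shSRPK1, with medians of 0.47, 0.41 and -0.29. Of these calls, MMP3 (higher) and MMP2 and MMP14 (lower) in oeSRPK1 against NT, and MMP2 against shSRPK1, are described above. The shares over all tested genes were 20.6%, 9.18% and 22.8% in these comparisons. MMP13, a collagenase, was the 1 called in shSRPK1 (2.48 ± 0.35, edgeR adjusted p = 0.0170), and was also higher in oeSRPK1 against NT (1.27 ± 0.35, edgeR adjusted p = 0.0487). It had 2081 and 338 reads in oeSRPK1, 1788 and 2957 in shSRPK1, and 343 and 589 in NT. MMP10, a stromelysin closely related to MMP3, had 140 and 19 reads in oeSRPK1, 15 and 12 in shSRPK1, and 2 and 14 in NT, and was called higher in oeSRPK1 against both other groups (edgeR adjusted p = 0.0127 against shSRPK1 and 0.00575 against NT). MMP19 rose in oeSRPK1 against NT (0.53 ± 0.16, edgeR adjusted p = 0.0485). The membrane-bound MMP15 fell there (-2.04 ± 0.33, edgeR adjusted p = 0.00653), and MMP17 fell in oeSRPK1 when set against shSRPK1 (-0.65 ± 0.20, edgeR adjusted p = 0.0482). MMP24 passed in no comparison (smallest edgeR adjusted p = 0.165). The gelatinase MMP9 had at most 6 reads in any library. Without any 1 of oeSRPK1 1, oeSRPK1 2, NT 1 and NT 2, fewer metalloproteinases were called in each direction in oeSRPK1 against NT. The same held for all tested genes. Both MMP10 calls were lost without oeSRPK1 1 and that against shSRPK1 also without oeSRPK1 2, the MMP15 call against NT without oeSRPK1 1 or NT 1, and the MMP13 call in shSRPK1 without NT 1 or NT 2. The calls of MMP19, MMP17 and MMP13 in oeSRPK1 were lost without any 1 of the oeSRPK1 and NT libraries.

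Of 14 genes of the inhibitor list, 8 were tested, and 2 were called in oeSRPK1 against NT, both higher (TIMP3 and TFPI2), 3 in shSRPK1 against NT, all higher (TIMP1, TFPI2 and A2M), and 2 higher and 2 lower in oeSRPK1 against shSRPK1. The medians were 0.73, 0.29 and 0.08, and TIMP1 and TIMP3 are among the 8. Over all tested genes, 20.6%, 9.18% and 22.8% were called in these comparisons, in either direction. TFPI2, a matrix-bound inhibitor of plasmin and other serine proteases, had 13305 and 2170 reads in oeSRPK1, 4451 and 3195 in shSRPK1, and 1357 and 2763 in NT. It rose by 1.83 ± 0.19 in oeSRPK1 (edgeR adjusted p = 0.00124) and 0.97 ± 0.19 in shSRPK1 (edgeR adjusted p = 0.0228) against NT. A2M, a broad protease trap, had 7 and 2 reads in oeSRPK1, 20 and 12 in shSRPK1, and 1 and 3 in NT, too few to size its change. The differences of RECK, a membrane-anchored inhibitor (-0.48 ± 0.16, edgeR adjusted p = 0.0627), TIMP2 (-0.34 ± 0.12, edgeR adjusted p = 0.0821), TIMP4 (0.88 ± 0.30, edgeR adjusted p = 0.0836) and SPOCK1 (0.57 ± 0.32, edgeR adjusted p = 0.250) between oeSRPK1 and NT did not pass. TIMP3 and TFPI2 stayed called in oeSRPK1 against NT without any 1 of the 6 libraries, while the calls of TFPI2 and A2M in shSRPK1 were lost without oeSRPK1 1, oeSRPK1 2, NT 1 or NT 2.

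The counts for other matrix proteases stand beside shares over all tested genes of 20.6% in oeSRPK1 against NT, 9.18% in shSRPK1 against NT and 22.8% in oeSRPK1 against shSRPK1. Of 23 tested ADAM and ADAMTS proteases, 3 were called higher and 4 lower in oeSRPK1 against NT, 2 and 1 in shSRPK1 against NT, and 2 and 5 in oeSRPK1 against shSRPK1. In oeSRPK1 against NT, ADAM22, a catalytically inactive ADAM (-1.21 ± 0.15, edgeR adjusted p = 0.00233), ADAMTS2, a procollagen N-proteinase (-1.26 ± 0.20, edgeR adjusted p = 0.00569), and ADAMTS7 (-1.04 ± 0.17, edgeR adjusted p = 0.00611) fell. ADAM12 rose in oeSRPK1 (1.48 ± 0.21, edgeR adjusted p = 0.00365) and in shSRPK1 (1.12 ± 0.21, edgeR adjusted p = 0.0203) against NT. ADAMTS6 rose in oeSRPK1 (2.57 ± 0.39, edgeR adjusted p = 0.00487), and ADAMTS9 fell in shSRPK1 (-1.08 ± 0.20, edgeR adjusted p = 0.0199). Each of these calls was lost without oeSRPK1 1, and also without NT 1 or NT 2 for ADAM12, NT 2 for ADAMTS2, NT 1 for ADAMTS6 and ADAMTS7, and oeSRPK1 2, NT 1 or NT 2 for ADAMTS9 and for ADAM12 in shSRPK1.

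Of 18 tested cathepsins and cystatins, 3 were called higher and 3 lower in oeSRPK1 against NT, 1 and 1 in shSRPK1 against NT, and 3 and 2 in oeSRPK1 against shSRPK1. Beside these stand 20.6%, 9.18% and 22.8% of all tested genes, called in either direction. CTSS, a lysosomal cysteine protease, rose by 2.81 ± 0.17 in oeSRPK1 against NT (edgeR adjusted p = 0.000294), and the call held without any 1 library. CTSA rose there by 0.54 ± 0.12 (edgeR adjusted p = 0.0207), while CTSC (-1.47 ± 0.28, edgeR adjusted p = 0.0134) and CTSF (-0.62 ± 0.12, edgeR adjusted p = 0.0131) fell. The cystatins CSTA (1.67 ± 0.32, edgeR adjusted p = 0.0115) and CST7 (1.81 ± 0.35, edgeR adjusted p = 0.0112) were higher in oeSRPK1 than shSRPK1. CSTA fell in shSRPK1 against NT (-1.88 ± 0.31, edgeR adjusted p = 0.0149) and did not pass in oeSRPK1 against NT (-0.21 ± 0.28, edgeR adjusted p = 0.622). In shSRPK1, CSTA had 11 and 11 reads and CST7 had 15 and 8. The calls of CTSA, CTSC and CTSF against NT, and of CSTA in shSRPK1 against NT, were lost without any 1 of the oeSRPK1 and NT libraries. Those of CSTA and CST7 in oeSRPK1 against shSRPK1 were lost without oeSRPK1 1 or, for CST7, oeSRPK1 2.

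Of 14 tested genes that activate pro-metalloproteinases or induce them, 3 were called higher and 2 lower in oeSRPK1 against NT, 2 and 1 in shSRPK1 against NT, and 3 and 1 in oeSRPK1 against shSRPK1. The shares over all tested genes, in either direction, were 20.6%, 9.18% and 22.8%. TNC, the matrix protein tenascin-C, had 2207 and 286 reads in oeSRPK1, 637 and 402 in shSRPK1, and 180 and 301 in NT. It rose against NT in oeSRPK1 (2.17 ± 0.19, edgeR adjusted p = 0.000682) and in shSRPK1 (1.16 ± 0.19, edgeR adjusted p = 0.0149). SH3PXD2A (TKS5), a scaffold of invadopodia, rose in oeSRPK1 (0.79 ± 0.14, edgeR adjusted p = 0.00884) and fell in shSRPK1 (-0.70 ± 0.14, edgeR adjusted p = 0.0262) against NT. Set against shSRPK1, its oeSRPK1 level was higher by 1.49 ± 0.145 (edgeR adjusted p = 0.00156). The integrin gene ITGB3 rose in oeSRPK1 against NT (0.94 ± 0.17, edgeR adjusted p = 0.00968), where the proprotein convertase PCSK6 (-1.11 ± 0.31, edgeR adjusted p = 0.0413) and the tetraspanin TSPAN12 (-0.91 ± 0.26, edgeR adjusted p = 0.0452) fell. BSG (EMMPRIN), an inducer of metalloproteinases, rose in shSRPK1 (0.72 ± 0.14, edgeR adjusted p = 0.0251). The TNC call in oeSRPK1 held without any 1 library and that in shSRPK1 was lost without NT 1 or NT 2. Against NT, the calls of SH3PXD2A and ITGB3 in oeSRPK1 were lost without oeSRPK1 1, NT 1 or NT 2. Those of PCSK6 and TSPAN12 in oeSRPK1, and of SH3PXD2A and BSG in shSRPK1, were lost without any 1 of the oeSRPK1 and NT libraries.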

How the data were processed

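The authors deposited a table of raw counts for each library, in whole reads per gene without normalisation. FastQC, Trimmomatic and STAR 2.5.3 with hg38 are named per the submitters' processing notes. Which counter, annotation release and strand setting made the tables is not given in the sources used here. The 5 entries that name no gene were kept out; reads in no gene were 8.13% to 11.1% of each total, multiply aligned reads 12.0% to 13.1% and ambiguous reads 3.04% to 3.37%. Gene symbols were looked up by id (432 ids matched GENCODE 29 alone), and GENCODE 29 exons gave lengths and positions.

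Genes were filtered by filterByExpr (minimum count 10, minimum total 15), which kept 99.8% of gene reads, and scaled by TMM. Tests were edgeR 4.0.16 (R 4.3.3) glmQLFit with robust estimation and glmQLFTest over all 6 libraries, adjusted by Benjamini-Hochberg over 14732 genes, with calls at 0.05. Log2 CPM used a prior count of 2. The labels call the libraries biological replicates without naming separate cultures, so p-values measure the spread between these libraries, which may be partly technical. A floor of 3 counts stood for 0.132 CPM in oeSRPK1 1 and 0.771 CPM in oeSRPK1 2 before scaling. Where 1 library of a group was left, its spread was taken from the other groups. The alternatives tried were upper-quartile scaling and DESeq2 size factors, no filter, a stricter filter (CPM of 5 in 2 libraries), the DESeq2 1.42.0 test, fits restricted to the compared libraries, a replicate block, an adjusted p under 0.01 and each library left out. The steps were tested on simulated data with the same spread for every gene and group. That test therefore does not cover the wider spread between the shSRPK1 libraries. The genes, wider lists and tests were chosen with earlier results of these data known; from each wider list at most 6 genes were to be named, those with the smallest adjusted p, and PLG and MMP9 were added after their values were seen. The muscle marker list had 1 gene that is not analysed here. Another gene of the plasminogen activation list is not reported here.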

Additional observations from a re-analysis of the deposited data

Results flagged for a closer look

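The summed levels of the skeletal muscle markers, which are not among the 9 genes, exceeded their levels in NT in 3 transfected libraries: 201 CPM in oeSRPK1 1, 2401 CPM in oeSRPK1 2 and 11.7 CPM in shSRPK1 2, against 0.874 and 1.70 CPM in NT. ACTA1 and MYH7 gave most of these reads. The 9 genes differed by at most 1.12 times between the oeSRPK1 libraries. Whether the muscle signal, present in both of these libraries, bears on the levels of the 9 genes was not tested. With 2 libraries per group, single outlying libraries could not be tested for within a group.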

How the results depend on the processing

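Calls depended on which libraries set the spread. With each library left out, called genes numbered 144 to 6152 (of the 9 genes, 1 to 7) in oeSRPK1 against shSRPK1, 293 to 6415 (1 to 9) in oeSRPK1 against NT and 29 to 4595 (0 to 5) in shSRPK1 against NT, beside 3361 (4), 3036 (6) and 1352 (2) with all. Fewer of the 9 genes were called than with all libraries in oeSRPK1 against NT without oeSRPK1 1, NT 1 or NT 2. The same held in oeSRPK1 against shSRPK1 without oeSRPK1 1. In shSRPK1 against NT, fewer were called without oeSRPK1 1, oeSRPK1 2, NT 1 or NT 2. When only the libraries compared were fitted, the calls were 1505, 6331 and 129. Of the 9 genes, 9 were called in oeSRPK1 against NT there and 0 in shSRPK1 against NT. At an adjusted p under 0.01 the calls were 970, 988 and 181, with 3 of the 9 genes in oeSRPK1 against NT and 0 in shSRPK1 against NT. At an unadjusted edgeR p under 0.05, 6 of the 9 genes and 28.8% of all tested genes passed in shSRPK1 against NT. With no filter, shSRPK1 against NT had 2616 calls and 4 of the 9 genes. DESeq2, on all 6 libraries, also called PLAUR and MMP2 there, as given above. MMP1 in oeSRPK1 against shSRPK1 turned to -0.41 without shSRPK1 1 and was 0.98 without shSRPK1 2. Differences between replicates 1 and 2 were nearly uncorrelated between groups over all tested genes (0.0235, -0.0186 and 0.0104). Low-count genes enter these correlations, so they cannot show whether same-numbered libraries share a culture or batch. With the replicate block, 2846, 2639 and 1006 genes were called, and 4, 5 and 2 of the 9. There PLAUR passed (edgeR adjusted p = 0.0394) and TIMP1 did not (0.0727) in oeSRPK1 against shSRPK1, and MMP14 did not (0.0597) in oeSRPK1 against NT. Over the 14 alternatives, which include the main fit read at an adjusted p under 0.01, there were 378 outcomes of single genes. Of these, 307 kept their side of the threshold, 43 lost a call, 27 gained one and 1 reversed. Only genes called in the main fit could lose a call, and the 307 include many outcomes of genes not called there. Scaling by DESeq2 size factors or upper quartile changed no call of the 9 genes. Depth was lowest in oeSRPK1 2. The cause of these differences was not tested, beyond the fewer libraries in some refits.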
